A study of Rattus norvegicus with 24 samples.

Results

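Proteasome subunit genes were taken as genes whose symbol is Psma to Psmg followed by a number, on probe sets annotated to exactly 1 gene, with the probe set of highest mean standing for each gene. This gave 44 of 14217 genes. They comprise 7 alpha ring subunits, 6 constitutive beta ring subunits, 3 tissue-specific core subunits (Psmb8, Psmb9 and Psmb10), 6 ATPases and 3 other subunits of the base, 8 lid subunits, 3 chaperones of the base, 4 chaperones of the core, 3 activators and 1 inhibitor. Psma8 and the thymus subunit Psmb11 had no probe set under this rule and were not analysed here, nor were Psmb6 and Psme3, which sat only on probe sets annotated to several genes. The probe set of Psmb9 was dim in both cell types, with a mean below the median of all probe sets, and that of Psma3 was dim in round spermatids. RefSeq lists pseudogenes or near copies for 17 of the 44 genes, among them Psma3, Psma7 and Psmd8, and the arrays may not separate these.

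The proteasome is the protease that degrades most proteins tagged with ubiquitin. Its core is a barrel of alpha and beta rings, in which some of the beta subunits cut peptide bonds, and a regulatory particle made of a base with ATPases and a lid recognises, unfolds and admits the substrate. Cells can exchange catalytic subunits for the interferon-induced immunoproteasome forms, cap the core with other activators, and build both particles with dedicated chaperones. In the testis proteasomes take part in meiosis and in the removal of histones from spermatids, and a testis alpha subunit (Psma8) replaces Psma7 in part of the core, as shown in mouse.

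RNA from purified germ cells of Brown Norway rats was measured on 24 Affymetrix rat arrays. The 4 groups, of 6 arrays each, were round spermatids of aged rats (18 months), round spermatids of young rats (4 months), pachytene spermatocytes of aged rats and pachytene spermatocytes of young rats, and the labels name no treatment, transgene or mutation in any of them. By the numbers in the titles, each of 12 rats gave both fractions. The fractions came from testes digested with collagenase and trypsin and separated by sedimentation, with a stated purity above 83%, so an array may also hold RNA of other testis cells.

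Median log2 levels as deposited were 7.56 to 7.86 per round spermatid array and 6.62 to 7.38 per pachytene array, and control probe sets of foreign sequence were 0.61 ± 0.77 (SD over 45 probe sets) higher on round spermatid arrays. Cell types were therefore compared on a joint scale. It was made by adding 84.5, a constant fitted to these control probe sets, to the linear pachytene values and quantile normalizing all 24 arrays. Ages were compared on values quantile normalized within each cell type. On the joint scale, 5 of 5 round spermatid and acrosome markers and 9 of 9 late spermatid markers were higher in round spermatids, and 6 of 7 pachytene markers were lower (1 was higher). These markers go with the labels. Of the markers of somatic cells, 11 of 11 macrophage and leukocyte genes were higher in round spermatids, and 10 of 12 Sertoli genes were lower (2 were higher). Of the peritubular genes 5 of 6 were higher, and of the Leydig genes 4 of 7 were lower (1 was higher). Of the spermatogonia genes 5 of 7 were higher (1 was lower). Young rats 1, 10 and 11 had pachytene arrays unlike the rest. On the leading component of the pachytene values, with 73.9% of the variance, aged arrays scored 16.2 to 39.6, these 3 young arrays -86.3, -47.1 and -44.0, and the other young ones -7.38 to 3.78. The mean late spermatid marker level was 13.08 to 13.65 in aged pachytene arrays, 14.58, 14.26 and 14.26 in these 3, and 13.54 to 13.71 in the other young arrays. Counts of the 44 genes with age are therefore given with and without these 3 rats, as are values of many single genes. Without them 3 arrays are left in each young group, so a change of the same size may no longer be called. Age results of the other pathway genes are given with all rats only. In aged pachytene arrays 9 of 9 late spermatid markers (6 of 9 without these rats) and 10 of 12 Sertoli markers were lower than in young ones, and the part of such cells in the age results was not tested. In RNA from a fraction, fewer cells of a type and less RNA per cell cannot be told apart.

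Between the cell types, most proteasome genes were lower in round spermatids than in pachytene spermatocytes. Of the 44 genes, 32 were lower, against 38.3% of all probe sets, and 11 were higher, against 46.9% of all probe sets (limma, Benjamini-Hochberg adjusted p under 0.05 over 31042 probe sets). The median log2 difference was -0.40 over the 44 genes and 0.03 over all probe sets. Centring each array on its median gave 6 higher and 36 lower, against 49.7% and 38.4% of all probe sets. The deposited scale gave 6 and 36, against 46.9% and 39.3%, and centring on hybridization controls 5 and 36, against 35.3% and 41%. All of these scalings kept the constant added to the pachytene values, so the deposited scale here means deposited values plus that constant. Agreement between them therefore does not test the constant. Without young rats 1, 10 and 11 there were 10 and 32, against 45.5% and 38.4%. All 32 genes called lower were also called lower under these 3 scalings. Of the 11 called higher, 5 were also called higher under all of them, namely Psma6, Psmb9, Psmd10, Psme4 and Psmf1. Psmd3, Psmd9 and Psme2 were called in the opposite direction under each of the 3, at -0.43 to -0.35, -0.31 to -0.23 and -0.31 to -0.23, and no direction is drawn for them. A fit of the cell types without the added constant was also run, and its counts are not given here. None of the turns of direction listed at the end came from that fit.

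**Figure D1:**
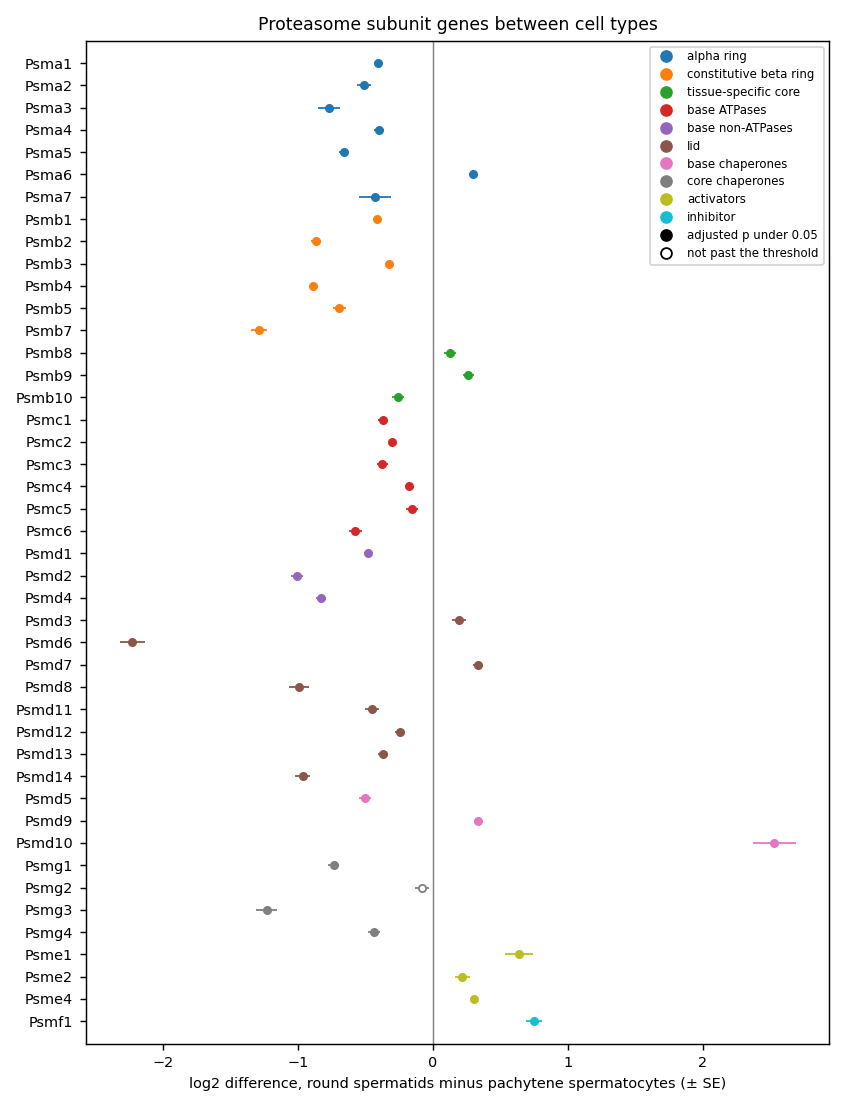
Log2 difference between round spermatids and pachytene spermatocytes for each of the 44 genes on the joint scale, with its standard error; colours mark subunit classes and filled points have an adjusted p under 0.05. All constitutive beta, ATPase and other base subunits lie left of 0 under each scaling, whereas Psmd3, Psmd7, Psmd9 and Psme2 lie right of 0 here and left of it under the other 3 scalings, as Psmb8 does under centring on hybridization controls.

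The constitutive core rings and the base were lower as classes in round spermatids under each of the 4 scalings. All 6 constitutive beta ring genes fell, with a median of -0.78, and 6 of 7 alpha ring genes fell, with a median of -0.43. Psmb7, the catalytic subunit with trypsin-like activity, had a log2 level of 9.27 at the lowest, 9.37 at the median and 9.49 at the highest in 12 round spermatid arrays, against 10.21, 10.74 and 10.91 in 12 pachytene arrays. The arrays of the cell types did not overlap, and Psmb7 was 2.45-fold lower in round spermatids (log2 -1.29 ± 0.06 SE, adjusted p 1.13e-15, limma). The other 5 constitutive beta genes fell by 0.32 to 0.89 on the log2 scale. Of these, Psmb5, the catalytic subunit with chymotrypsin-like activity, was at -0.69, while its other 2 probe sets, both dimmer, were called higher, at 0.13 and 0.39, so its direction depends on the probe set. Among the alpha subunits, which form the outer rings and the gate, Psma3 ranged from 7.27 over a median of 7.52 to 7.86 in round spermatids and from 7.92 over 8.21 to 9.15 in pachytene spermatocytes, again without overlap (log2 -0.77 ± 0.08, adjusted p 1.25e-08). Psma7, a further alpha subunit, was not called between the cell types in aged rats, at -0.16 (adjusted p 0.374), and was called in young rats, at -0.69. Psma6 was the exception of its ring. Its levels were 14.49, 14.55 and 14.65 (lowest, median, highest) in round spermatids and 14.15, 14.23 and 14.49 in pachytene spermatocytes, and it was 1.23-fold higher (log2 0.30 ± 0.02, adjusted p 5.25e-11).

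All 6 ATPases of the base, which form the unfolding ring, were lower, with a median of -0.34 and a range of -0.57 to -0.15. Psmc6 lay at the far end, at 8.98, 9.29 and 9.43 in round spermatids against 9.57, 9.86 and 10.12 in pachytene spermatocytes (log2 -0.57 ± 0.05, adjusted p 1.31e-10). Its other 2 probe sets were lower too, by -1.45 and -0.94. The 3 non-ATPase subunits of the base had a median of -0.83. Psmd2, the scaffold that docks ubiquitin shuttles, had 11.70, 11.97 and 12.16 in round spermatids and 12.53, 13.03 and 13.11 in pachytene spermatocytes, which is 2.01-fold lower without overlap of arrays (log2 -1.004 ± 0.04, adjusted p 7.80e-16). Psmd4, a ubiquitin receptor, fell by 0.83, and Psmd1, the other large scaffold, by 0.48.

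The lid held the largest fall of all 44 genes. Psmd6, a lid scaffold subunit, had log2 levels of 9.78, 10.52 and 11.01 in round spermatids and 11.86, 12.84 and 12.93 in pachytene spermatocytes. Every round spermatid array lay below every pachytene array, and the difference was 4.69-fold (log2 -2.23 ± 0.09, adjusted p 2.92e-16). It was -2.11 in aged rats and -2.35 in young rats. Psmd14, the deubiquitinase of the lid, fell by 0.97, and both of its other probe sets fell as well, by 1.09 and 0.84. Psmd8 fell by 0.99, and Psmd11, Psmd12 and Psmd13 by 0.24 to 0.45. For Psmd11 the other 2 probe sets went the other way, at 0.28 and 1.43, so its direction depends on the probe set. Psmd7, which pairs with Psmd14, was at 0.33 on the chosen probe set and at -0.31 on the other, and it was at -0.11 to -0.03 under the other scalings.

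Chaperones, activators and the inhibitor went both ways. Psmd10 (gankyrin), a chaperone of the base and the only one of the 44 genes on the X chromosome, rose more than any other. Its log2 level was 11.77, 11.87 and 11.92 in round spermatids and 8.68, 9.09 and 10.95 in pachytene spermatocytes, with no overlap. The difference was 5.77-fold (log2 2.53 ± 0.16, adjusted p 5.37e-13), 2.96 in aged rats and 2.10 in young rats, and it was 2.86 without young rats 1, 10 and 11. Psmd5, another base chaperone, fell by 0.51, at 7.93, 8.14 and 8.38 against 8.44, 8.66 and 8.77. Of the 4 core chaperones 3 fell. Psmg3, which acts with Psmg4 on the alpha ring, had 8.45, 8.66 and 8.81 in round spermatids and 9.11, 9.99 and 10.10 in pachytene spermatocytes (log2 -1.23 ± 0.08, adjusted p 4.32e-13), and its arrays did not overlap. Psmg2 did not pass the threshold (log2 -0.08 ± 0.05, adjusted p 0.137).

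Psmf1, which can inhibit the core, was higher in round spermatids. It had 13.52, 13.66 and 13.94 there and 12.72, 12.83 and 13.52 in pachytene spermatocytes, where only the array of young rat 1 reached the round spermatid range (log2 0.75 ± 0.06, adjusted p 5.01e-11). Psme4, the activator that in mouse takes part in histone removal from spermatids, had 12.89, 12.94 and 13.01 in round spermatids and 12.49, 12.63 and 12.74 in pachytene spermatocytes. The arrays did not overlap, and it was 1.24-fold higher (log2 0.31 ± 0.02, adjusted p 6.19e-13). Another probe set of Psme4 was higher too, by 0.54, but the dimmer one was lower, at -0.81. Psme1, part of the interferon-induced activator, was 1.56-fold higher (8.32, 8.63 and 9.40 against 7.88, 8.06 and 8.49, log2 0.64 ± 0.10, adjusted p 3.87e-06), with overlap. Its other probe set was at -0.06, and centring on hybridization controls left 0.21 without a call.

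With the constant added to the pachytene values, the immunoproteasome subunits differed little between the cell types. Without it, on values normalized within each cell type, Psmb8 averaged 7.20 in pachytene spermatocytes and 7.88 in round spermatids. Psmb9 averaged 5.61 and 7.46, and Psmb10 9.58 and 8.88. Foreign control probe sets still differed by 0.17 ± 0.29 (mean and SD) after the addition. The size of the Psmb8 and Psmb9 differences therefore depends on the constant. Psmb9 had 7.18, 7.39 and 7.73 in round spermatids and 7.02, 7.15 and 7.24 in pachytene spermatocytes (log2 0.26 ± 0.04, adjusted p 2.80e-06), from a dim probe set. Psmb8 had 7.75, 7.90 and 8.45 against 7.60, 7.81 and 8.20 (log2 0.13 ± 0.05, adjusted p 0.0132), and it was not called under the 3 other scalings, where it lay between -0.03 and 0.05. Those scalings also kept the constant. Psmb10, the counterpart of Psmb7, had 9.07, 9.20 and 9.27 in round spermatids and 8.87, 9.53 and 9.67 in pachytene spermatocytes, and it was lower (log2 -0.26 ± 0.05, adjusted p 2.57e-05). Its difference was -0.46 in aged rats, and in young rats it was -0.05 (adjusted p 0.482). The 11 macrophage and leukocyte genes, cells that express immunoproteasome subunits, were higher in round spermatids by a median of 0.82; their part in these values was not tested.

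**Figure D2:**
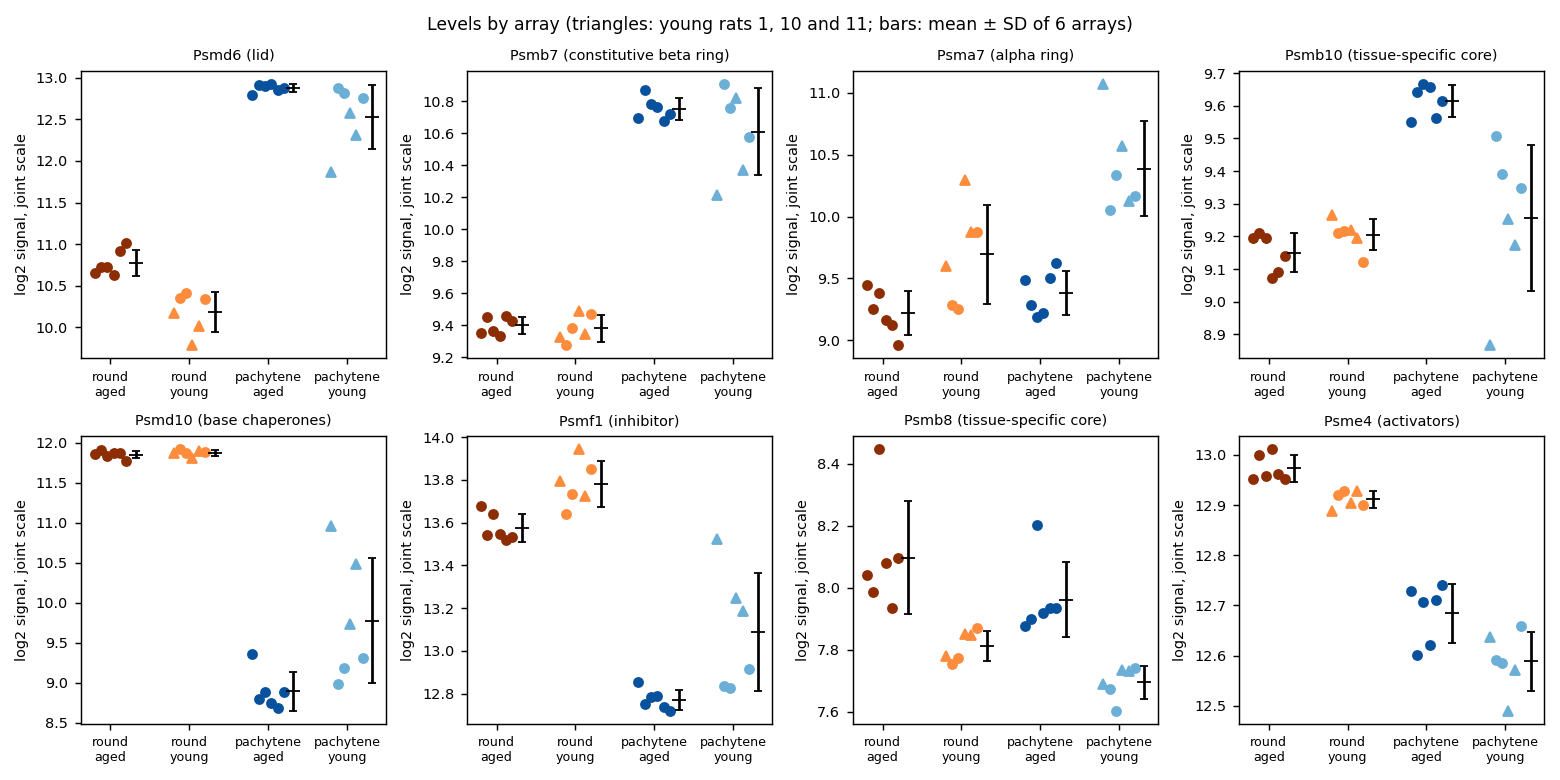
Log2 level on the joint scale of 8 named genes in each array, with groups in the order aged round, young round, aged pachytene and young pachytene; triangles mark young rats 1, 10 and 11 and bars give the mean and SD of 6 arrays. Psmd6 and Psmb7 are lower in every round spermatid array, Psmd10 and Psme4 are higher in every one, and the young pachytene arrays of Psmd10 spread from 8.98 to 10.95.

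Promoter sequences from RefSeq (GRCr8) were found for 40 of the 44 genes and are shown for 2 genes that rose and 2 that fell between the cell types. Each runs over the 250 bases before the annotated start, 5′ to 3′ on the strand of the gene. Capitals mark the core of the antioxidant response element, which Nfe2l1 and Nfe2l2 bind (TGACNNNGC), and the CCAAT box, which NF-Y binds, each searched on both strands, and in Psmb2 the 2 motifs overlap. Psmd10 lies at chrX:109453606-109453855 (minus strand) and Psmf1 at chr3:160720916-160721165 (minus strand). Psmb7 lies at chr3:42827471-42827720 (minus strand) and Psmb2 at chr5:144254808-144255057 (plus strand).
Psmd10: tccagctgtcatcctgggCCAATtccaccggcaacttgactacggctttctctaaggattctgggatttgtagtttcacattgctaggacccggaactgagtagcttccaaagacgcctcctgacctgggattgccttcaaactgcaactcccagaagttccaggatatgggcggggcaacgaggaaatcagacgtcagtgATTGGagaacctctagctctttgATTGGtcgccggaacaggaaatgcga
Psmf1: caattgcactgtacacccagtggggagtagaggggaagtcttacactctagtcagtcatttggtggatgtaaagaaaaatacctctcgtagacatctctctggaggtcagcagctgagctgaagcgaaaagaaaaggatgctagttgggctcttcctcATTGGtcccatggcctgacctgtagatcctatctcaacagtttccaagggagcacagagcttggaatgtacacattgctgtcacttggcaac
Psmb7: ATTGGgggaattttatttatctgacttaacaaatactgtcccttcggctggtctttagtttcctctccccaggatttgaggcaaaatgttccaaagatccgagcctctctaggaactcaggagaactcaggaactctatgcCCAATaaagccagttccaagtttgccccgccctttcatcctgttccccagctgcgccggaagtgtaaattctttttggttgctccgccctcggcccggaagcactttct
Psmb2: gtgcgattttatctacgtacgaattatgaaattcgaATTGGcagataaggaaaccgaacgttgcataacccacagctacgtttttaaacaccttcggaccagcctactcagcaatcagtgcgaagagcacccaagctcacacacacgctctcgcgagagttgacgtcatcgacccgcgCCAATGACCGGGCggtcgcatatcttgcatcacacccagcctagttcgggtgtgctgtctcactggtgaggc
Over the window of 300 bases that includes 50 after the start, the response element core was in 7 of 40 members (17.5%) and in 12.1% of 33469 promoters. The CCAAT box was in 20 of 40 members (50%) and in 37.5% of all promoters. Among members with a promoter, the response element core was in 3 of 11 called higher and 4 of 28 called lower between the cell types. The CCAAT box was in 6 of 11 and 14 of 28. Psmb2, a structural beta subunit with both motifs, fell by 0.87 on the log2 scale. Psma3 and Psmd9 held both motifs as well.

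With age, 5 of 8 lid genes and 4 of 6 ATPase genes were higher in round spermatids. Of the 44 genes, 12 were higher in aged than in young round spermatids, against 8.65% of all probe sets, and 2 were lower, against 8.48% of all probe sets. The median log2 change was 0.03 for the 44 genes and 0.00 for all probe sets, on values normalized within the cell type. The scaling moved these counts. Median centring gave 4 higher and 3 lower, against 5.69% and 5.75% of all probe sets. The deposited scale gave 26 and 1, against 53.1% and 2.24%, and centring on hybridization controls 24 and 0, against 26.7% and 1.38%. The deposited scale shifted the median of all probe sets by 0.14 and the hybridization controls by 0.18, and against those shifts the medians of the 44 genes were 0.22 and 0.26. Without young rats 1, 10 and 11 the counts were 3 higher (Psmc1, Psmd6 and Psmd8) and 1 lower (Psmg2), against 3.12% and 2.41% of all probe sets. In aged round spermatids 7 of 12 Sertoli markers were lower and 3 of 7 pachytene markers were higher, and the part of other cells in these counts was not tested.

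All 8 lid genes had a positive change in aged round spermatids, and 5 were called. The median of the lid was 0.20, and 0.32 to 0.50 under the other scalings. The round spermatid array of young rat 10, which scored -40.7 on the leading component of the round spermatid values where the aged arrays scored 4.13 to 21.3 and the other young ones -18.7 to 4.69, had the lowest mean over the lid genes of all arrays. Without that rat 11 of the 44 genes were higher and 3 lower, and the share of all probe sets was not computed. Psmd6 changed most. It had 10.42, 10.52 and 10.85 (lowest, median, highest of 6 arrays) in aged and 9.49, 10.005 and 10.18 in young round spermatids, which do not overlap (log2 0.66 ± 0.11, adjusted p 0.00269). Its change was 0.58 without young rat 10, and 0.46 without young rats 1, 10 and 11 (adjusted p 0.0179). Psmd8, which completes the assembly of the lid in yeast, rose by 0.47, and Psmd3, a lid scaffold, rose by 0.37. These 3 genes and Psmb8 were called higher under each of the 3 other scalings. Psmd7 and Psmd11 rose by 0.21 and 0.20, the last just inside the threshold, and neither was called with median centring. The other probe sets of Psmd11 were at 0.00 and -0.03. Psmd14 was not called at 0.19, while another probe set of it was called at 0.21 (adjusted p 0.0181).

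Of the 6 ATPases 4 rose in aged round spermatids, Psmc1, Psmc2, Psmc3 and Psmc4, by 0.11 to 0.25, with no call under median centring, where the class median was 0.11 as against 0.12. Psmc3 had 13.27, 13.37 and 13.46 in aged and 12.91, 13.18 and 13.29 in young round spermatids, with a narrow overlap (log2 0.25 ± 0.06, adjusted p 0.0137). Psmd2 of the base, at 11.91, 12.07 and 12.15 against 11.63, 11.87 and 11.96, rose by 0.21 ± 0.06 (adjusted p 0.0193). In the core, Psmb4, a structural beta subunit, had 12.32, 12.36 and 12.46 in aged and 12.03, 12.14 and 12.30 in young round spermatids. The groups did not overlap (log2 0.23 ± 0.04, adjusted p 0.00400), but neither Psmb4 nor Psmd2 was called under median centring or without the 3 young rats. Psmb8 of the immunoproteasome had 7.87, 7.96 and 8.25 in aged and 7.73, 7.78 and 7.82 in young round spermatids, without overlap (log2 0.21 ± 0.05, adjusted p 0.0151). Without young rats 1, 10 and 11 its change was of like size, at 0.22, but not called (adjusted p 0.0867), with 3 young arrays left. Psmb9, at 7.40, 7.53 and 7.72 against 7.26, 7.39 and 7.49, and Psmb10, at 8.78, 8.87 and 8.91 against 8.83, 8.92 and 8.97, were not called, at 0.14 ± 0.06 (adjusted p 0.115) and -0.05 ± 0.03 (adjusted p 0.325). No alpha ring gene passed the threshold. Psma7 had the largest change of the ring, -0.48 ± 0.16 (adjusted p 0.0534), and it was at -0.25 without young rats 1, 10 and 11 (adjusted p 0.347).

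The core chaperone Psmg2 and the inhibitor Psmf1 were lower in aged round spermatids. Psmg2, which pairs with Psmg1, had 10.17, 10.29 and 10.38 in aged and 10.45, 10.62 and 10.98 in young ones, without overlap (log2 -0.36 ± 0.08, adjusted p 0.00719). Psmf1 had 13.57, 13.60 and 13.73 against 13.70, 13.82 and 13.996, overlapping in the tails (log2 -0.20 ± 0.05, adjusted p 0.0114). Centring on hybridization controls called neither, with values of -0.07 and -0.16. Psmg2 was also not called on the deposited scale, at -0.11, nor was Psmf1 without young rats 1, 10 and 11, at -0.16. Psmd10 and Psme4 did not pass the threshold here, at -0.03 ± 0.03 (adjusted p 0.616) and 0.06 ± 0.02 (adjusted p 0.0972). Psmd10 had 11.72 to 11.87 in aged and 11.75 to 11.89 in young round spermatids.

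**Figure D3:**
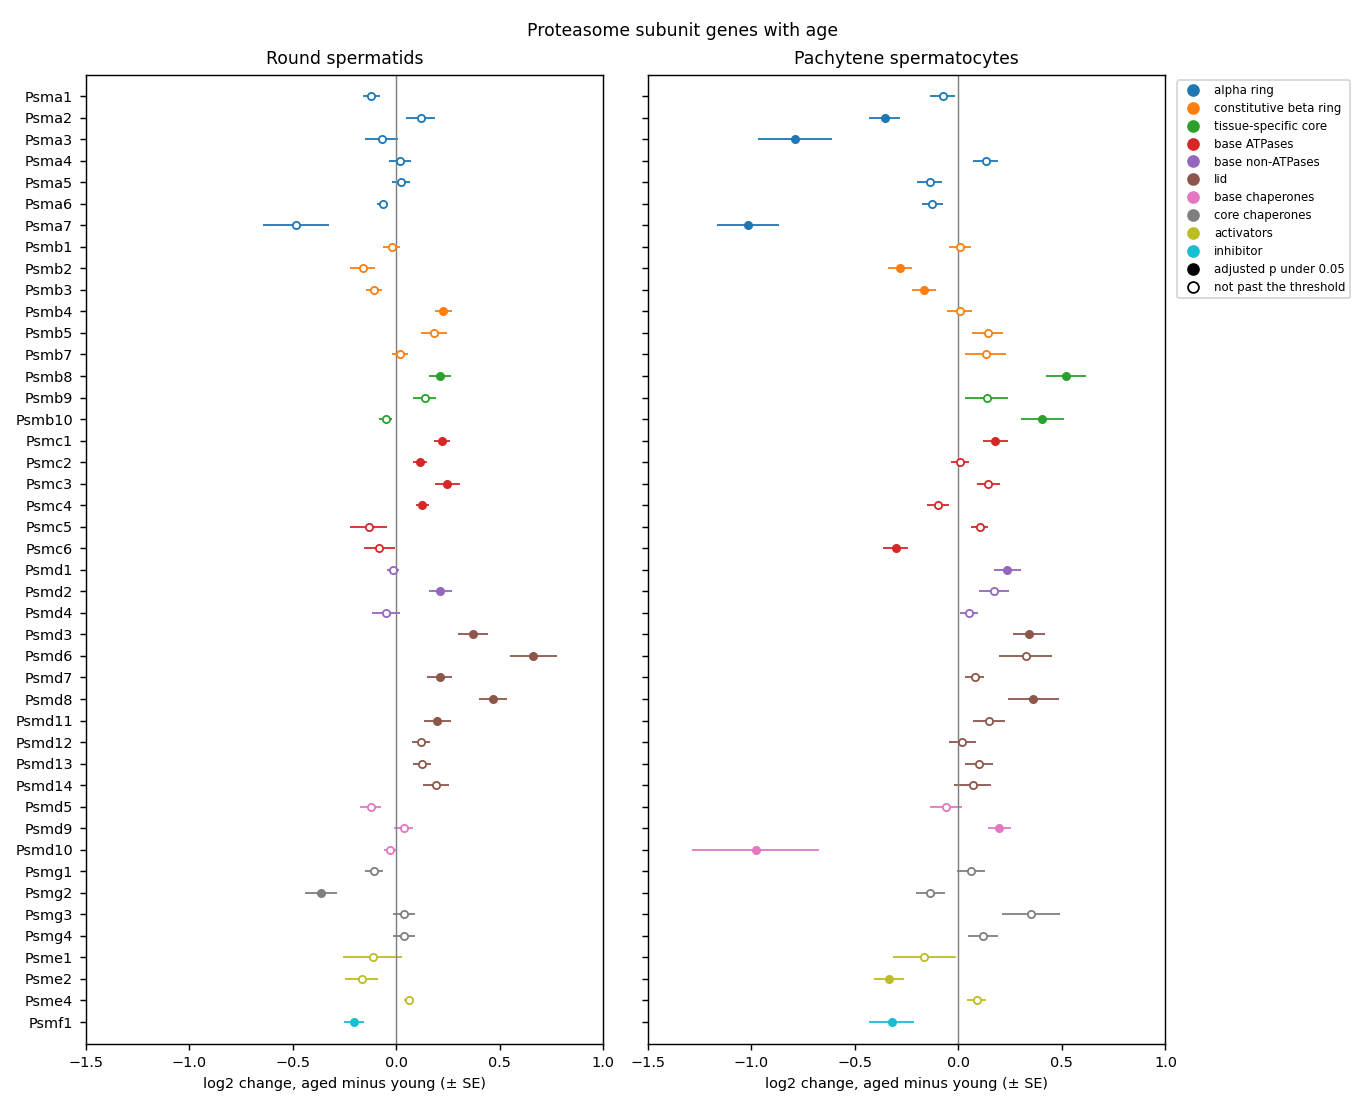
Log2 change between aged and young rats for each of the 44 genes in round spermatids (left) and pachytene spermatocytes (right), each on the scale of its cell type, with the standard error; filled points have an adjusted p under 0.05. The lid genes lie right of 0 in both panels, although on the deposited scale 4 of the 8 are positive in pachytene spermatocytes, and Psma3, Psma7 and Psmd10 lie far left of 0 in pachytene spermatocytes.

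In pachytene spermatocytes the changes with age went both ways, with 3 alpha ring genes lower and the immunoproteasome genes Psmb8 and Psmb10 higher. Of the 44 genes, 7 were higher in aged spermatocytes, against 22.1% of all probe sets, and 9 were lower, against 15.4% of all probe sets. The median was 0.07 for the 44 genes and 0.05 for all probe sets. The split depended on the scaling. It was 28 higher and 4 lower under median centring, against 34.3% and 13.4% of all probe sets. On the deposited scale it was 1 and 17, against 4.36% and 57.3%, and with hybridization controls 5 and 9, against 7.27% and 25.5%. These scalings moved the median of all probe sets to 0.14, -0.24 and -0.12. Without young rats 1, 10 and 11 there were 5 higher and 6 lower, against 14.1% and 10.6% of all probe sets.

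Of the alpha ring, Psma2, Psma3 and Psma7 fell and no member rose; the class median was -0.14, and 0.12 under median centring. Psma7, the subunit that Psma8 replaces, had 9.31, 9.53 and 9.79 in aged and 10.22, 10.42 and 11.18 in young pachytene spermatocytes. Every aged array lay below every young one, and the fall was 2.02-fold (log2 -1.02 ± 0.15, adjusted p 0.000682). It was -0.85 without young rats 1, 10 and 11, and -1.24 to -0.86 under the other scalings. The Sertoli marker mean was 9.50 to 9.87 in aged and 10.30 to 11.03 in young pachytene arrays. The part of these cells in the Psma7 level was not tested. Psma3 fell by 0.79, also without overlap, and by 0.48 without the 3 young rats. A brighter probe set, annotated to both Psma3 and Psma3l, was at 0.11 and not called (adjusted p 0.338). The direction of Psma3 therefore depends on the probe set. Psma2 fell by 0.36, and was at -0.12 without a call under median centring. In the beta ring Psmb2 fell by 0.28, at 10.87, 10.91 and 10.96 in aged against 11.07, 11.16 and 11.38 in young spermatocytes (adjusted p 0.00324), and Psmb3 by 0.17; neither was called under median centring, where Psmb3 was at 0.07, and Psmb3 was not called without the 3 young rats.

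Both Psmb8 and Psmb10 were higher in aged pachytene spermatocytes. Psmb8, the counterpart of Psmb5, had 7.30, 7.40 and 7.90 in aged and 6.75, 6.97 and 7.04 in young spermatocytes, so that the groups did not overlap (log2 0.52 ± 0.09, adjusted p 0.00184). Psmb10 had 9.71, 9.79 and 9.84 against 8.90, 9.43 and 9.66, also without overlap (log2 0.41 ± 0.10, adjusted p 0.00939). Both stayed called without young rats 1, 10 and 11, at 0.56 and 0.23. Neither was called on the deposited scale, where each was at 0.12, or with hybridization controls, at 0.24 each. Psmb9 had 5.54, 5.61 and 5.87 against 5.23, 5.61 and 5.80 and did not pass (0.14 ± 0.10, adjusted p 0.315), but was called at 0.30 without the 3 young rats and was at -0.17 on the deposited scale. Aged rat 5 had the highest Psmb8 level in both cell types, 8.25 in round spermatids and 7.90 in pachytene spermatocytes. Its macrophage and leukocyte marker mean was the highest of the round spermatid arrays, at 8.79 (the other aged arrays lay at 8.25 to 8.51), and 6.54 in pachytene spermatocytes, where the aged arrays lay at 6.45 to 6.56. The part of these cells in the Psmb8 level was not tested. Of the 11 macrophage and leukocyte genes, 1 rose and 1 fell with age in pachytene spermatocytes.

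Psmd10 and Psmf1 fell in aged pachytene spermatocytes, and both calls rest on the 3 young rats with unlike arrays. Psmd10 had 8.65, 8.86 and 9.49 in aged and 9.05, 9.67 and 11.06 in young spermatocytes, with young rats 1, 11 and 10 highest, at 11.06, 10.63 and 9.90 (log2 -0.98 ± 0.31, adjusted p 0.0242). The groups overlapped, and without these rats the change was -0.36 (adjusted p 0.134). Psmf1 had 12.64, 12.68 and 12.77 against 12.75, 12.97 and 13.46 (log2 -0.32 ± 0.11, adjusted p 0.0334), with overlap, and -0.09 without them (adjusted p 0.202). The late spermatid marker mean was highest in the same 3 arrays, and its part in these values was not tested. Psmf1 was at 0.02 under median centring.

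The regulatory particle moved in both directions. Psmc6 fell, at 9.72, 9.83 and 10.04 in aged against 10.03, 10.14 and 10.29 in young spermatocytes (log2 -0.30 ± 0.06, adjusted p 0.00301), and it was at -0.30 without the 3 young rats, but not called under median centring, at -0.15. Both other probe sets of Psmc6 fell, by 0.52 and 0.56. Psmc1 had 11.80, 11.86 and 11.90 in aged against 11.47, 11.68 and 11.81 in young spermatocytes (log2 0.18 ± 0.06, adjusted p 0.0300). Psmd1 had 10.71, 10.75 and 10.79 against 10.29, 10.52 and 10.69, with no overlap (log2 0.24 ± 0.06, adjusted p 0.0137). Neither was called without the 3 young rats. All 8 lid genes had a positive change, 2 of them called, though on the deposited scale 4 of 8 were positive, and without the 3 young rats 5 of 8. Another probe set of Psmd11 was called lower, at -0.33 (adjusted p 0.00717), where the chosen one was not called, at 0.15. Psmd8 had 13.69, 13.76 and 13.80 against 12.89, 13.44 and 13.71 and rose by 0.36 ± 0.12 (adjusted p 0.0351), but by 0.09 without the 3 young rats, where it was not called. Psmd3 rose by 0.34, and by 0.20 without them, but was not called on the deposited scale, at 0.10. Psmd6 was not called (0.32 ± 0.13, adjusted p 0.0650), at 12.71, 12.81 and 12.85 in aged against 11.88, 12.59 and 12.79 in young spermatocytes, and was at 0.070 without the 3 young rats (adjusted p 0.345). Psmd9, a base chaperone that binds ATPases, rose by 0.20 ± 0.05 (adjusted p 0.0144), yet was at -0.14 as deposited and -0.03 when centred on hybridization controls. Psme2, the other part of the interferon-induced activator, fell by 0.34 ± 0.07 (8.16, 8.21 and 8.36 against 8.41, 8.58 and 8.81, adjusted p 0.00440) and was called under all 4 scalings and without the 3 young rats, where it was at -0.21. Psme1, the partner of Psme2, was not called on its chosen probe set. Its other probe set was called higher, at 0.28 (adjusted p 0.00396). Psme4 was not called (0.09 ± 0.04, adjusted p 0.136).

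**Figure D4:**
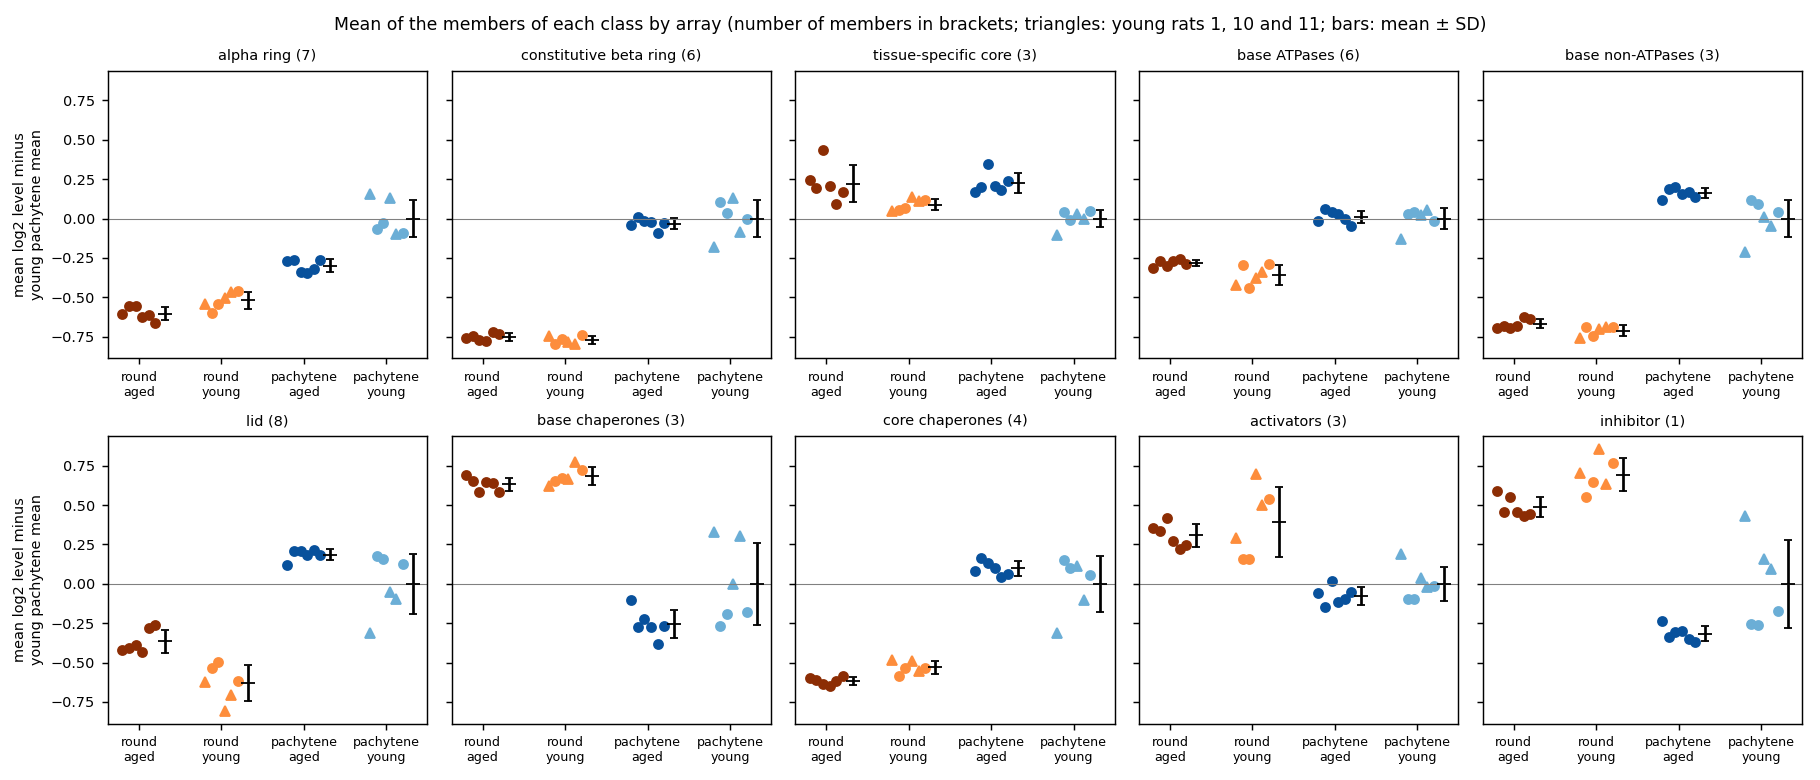
Mean log2 level of the members of each class in each array, on the joint scale and minus its mean in young pachytene spermatocytes, with groups in the order aged round, young round, aged pachytene and young pachytene; triangles mark young rats 1, 10 and 11 and bars give the mean and SD of 6 arrays. The lid mean is -0.37 ± 0.07 in aged and -0.63 ± 0.11 in young round spermatids, and the base chaperones, which hold Psmd10, reach 0.63 ± 0.04 in aged round spermatids but have a negative median between the cell types under the 3 other scalings.

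The change with age was also compared between the cell types, as the change in round spermatids minus the change in pachytene spermatocytes. Of the 44 genes, 3 were higher by this measure, against 5.98% of all probe sets, and 2 were lower, against 7.03% of all probe sets. The counts were 5 and 4 under median centring, against 9.24% and 27.6% of all probe sets. They were 28 and 0 on the deposited scale, against 80.9% and 0.0838%, and 20 and 0 with hybridization controls, against 26.2% and 0.087%. For this difference too, every scaling, the deposited one included, kept the constant added to the pachytene values. Without young rats 1, 10 and 11 they were 3 and 3, against 4.26% and 4.16%. The deposited scale and the hybridization controls moved the median of all probe sets to 0.27 and 0.19. Psma2 was the gene called under all 4 scalings and without young rats 1, 10 and 11. On the joint scale it had 10.23, 10.35 and 10.43 in aged and 9.96, 10.26 and 10.40 in young round spermatids, and 10.52, 10.60 and 10.73 in aged and 10.81, 10.95 and 11.23 in young pachytene spermatocytes. The groups overlapped in round spermatids and not in pachytene spermatocytes (difference 0.50 ± 0.10, adjusted p 0.00359, and 0.30 without the 3 young rats).

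Psmb10 differed in the other sense. It had 9.07, 9.17 and 9.21 in aged and 9.12, 9.21 and 9.27 in young round spermatids, and 9.55, 9.63 and 9.67 in aged and 8.87, 9.30 and 9.51 in young pachytene spermatocytes (difference -0.41 ± 0.09, adjusted p 0.00670). Its value was -0.24 without the 3 young rats, where it was called, and -0.33 under median centring, where it was called. On the deposited scale with the constant added it was 0.03. Psmb4 and Psmc4 had differences of 0.20 ± 0.06 (adjusted p 0.0449) and 0.22 ± 0.06 (adjusted p 0.0123), and Psmd1 of -0.27 ± 0.07 (adjusted p 0.0119). Median centring called none of these 3, at 0.05, 0.18 and -0.21, and Psmc4 was at 0.14 without the 3 young rats, not called. Psmd1 was at -0.15 without them, still called, at 0.15 as deposited with the constant added and 0.08 when centred on hybridization controls. For Psmb8, Psmb9, Psmd6 and Psme4 the difference did not pass the threshold, at 0.02 ± 0.09, 0.12 ± 0.08, 0.25 ± 0.19 and -0.03 ± 0.04. Without the 3 young rats Psmd6 was called, at 0.34 (adjusted p 0.0300), and another probe set of Psme4 was called with all rats, at 0.25 (adjusted p 0.0414). Psmd10 was at 0.86 ± 0.32 (adjusted p 0.0761), and was called under the 3 other scalings, at 0.92 to 1.28, but it was at 0.24 without the 3 young rats (adjusted p 0.379). With the rat as a block, Psmb4 was not called (adjusted p 0.0523).

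Other genes of the pathway, 29 measured of 36 listed, were called in both directions between the cell types. Of these, 12 (41.4%) were higher and 14 (48.3%) lower in round spermatids than in pachytene spermatocytes, near the 46.9% and 38.3% of all probe sets, and 7 to 10 were higher and 17 to 18 lower under the other scalings. The 4 with the smallest p were all lower. Vcp, the segregase that hands unfolded proteins to the proteasome, fell by 1.79. Pomp, which matures the core, fell by 1.08, Ecpas, which tethers the particle, by 1.10, and Ddi2, a protease that activates Nfe2l1, by 0.82. With age, 4 (13.8%) rose and 10 (34.5%) fell in round spermatids, where 8.65% and 8.48% of all probe sets did. The counts were 3 and 5 under median centring, 11 and 3 as deposited and 9 and 1 when centred on hybridization controls. Ufd1, a cofactor of Vcp, fell by 0.47, Ube3a, a ubiquitin ligase, fell by 0.25, Pithd1 rose by 0.44, and Usp14, a deubiquitinase of the particle, rose by 0.34. In pachytene spermatocytes 4 rose and 7 fell, where 22.1% and 15.4% of all probe sets did, and the counts were 12 and 5, 3 and 17, and 3 and 10 under these scalings. Ubqln2, a shuttle that carries ubiquitin conjugates, fell by 1.37, with 8.83 to 9.52 in aged and 10.21 to 11.21 in young spermatocytes. Uba6, Zfand5 and Uba1, of which Uba1 and Uba6 activate ubiquitin, fell by 0.995, 0.50 and 0.79. The difference of the age change was positive for 5 of the 29 and negative for 1, where it was so for 5.98% and 7.03% of all probe sets, with counts of 3 and 3, 17 and 0, and 10 and 0 under these scalings. Of those called, Ubqln2 (0.94), Usp14 (0.36) and Txnl1 (0.49) were higher and Adrm1 (-0.49) lower.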

How the data were processed

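The deposited values are log2 expression levels per Affymetrix probe set. The summarising program and its normalization were not given in the labels used here. Of 31099 probe sets, 57 controls were left out and 31042 tested. For age, values were quantile normalized within each cell type. For cell type and for the difference of the age change, 84.5 was added to the linear pachytene values, and all 24 arrays were quantile normalized. The constant was fitted to 45 control probe sets of foreign sequence, so that their mean difference between the cell types was nearest 0. That difference was 0.61 ± 0.77 before and 0.17 ± 0.29 after both steps (mean and SD). Because the constant was fitted to these probe sets, they do not test it. The other scalings of these comparisons, the deposited scale among them, kept this addition and do not test it. Each comparison was fitted with limma 3.58.1 in R 4.3.3 over all probe sets with Benjamini-Hochberg adjustment. The steps were also run on simulated data, in which both cell types had the same background. That simulation could therefore not test the added 84.5. Python 3.11.15 drew the plots and searched the promoters.

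The labels give each array a rat number, taken as 1 rat per age and number. Partners' deviations from their group means correlated at -0.07 to 0.36, and 6 of 12 rats matched their own partner best. The numbers in the titles are the source of that pairing. No batch is named in the labels; array names run in blocks by group, so an effect of that order cannot be told apart from the groups. The 44 genes, classes and lists were chosen with earlier results of these data known. Values are given for the gene of each class that rose most and fell most among those called in each comparison, and always for Psmb8, Psmb9, Psmb10, Psmd6, Psmd10 and Psme4. Of the other pathway genes up to 4 with the smallest p are named per comparison. Other scalings, filters, probe sets and sets of rats were tried as alternatives.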

Additional observations from a re-analysis of the deposited data

Results flagged for a closer look

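In 9 of 176 groups of 6 arrays, 1 array lay far from the other 5 by its gap over the whole range, where chance alone gives about 8.8 (1 in 20). All levels are log2 within the cell type. Young rat 1 was the lowest of the young pachytene arrays for Psmb4 (12.81, next 13.09), Psmd2 (12.47, next 12.82) and Psmd13 (10.27, next 10.56). Young rat 10 was the lowest of the young round spermatid arrays for Psmc6 (8.70, next 8.98) and Psmd11 (10.87, next 11.19). Aged rat 5 was the highest for Psmb8 in aged round spermatids (8.25, next 7.99) and in aged pachytene spermatocytes (7.90, next 7.42). Aged rat 2 was the highest of the aged pachytene arrays for Psmd10 (9.49, next 8.92), and young rat 2 the highest of the young round spermatid arrays for Psmc2 (13.47, next 13.35).

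The change with age differed between round spermatids and pachytene spermatocytes by a test of the difference for 5 genes. It was more positive in round spermatids for Psma2 (0.50), Psmc4 (0.22) and Psmb4 (0.20), and more negative for Psmb10 (-0.41) and Psmd1 (-0.27).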

How the results depend on the processing

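Counts of the 44 genes are given as higher and lower. The share of all probe sets was not computed at 1.5-fold, without the dimmest probe sets or with 1 probe set per gene. Nor was it computed for counts without single rats or with a replicate block. Nothing is drawn from those counts about the 44 genes. Median centring gave 28 and 4 for age in pachytene spermatocytes, 4 higher for age in round spermatids, 6 higher between cell types, and 5 and 4 for the difference of the age change. The deposited scale gave 1 and 17, 26 and 1, 6 higher, and 28 and 0 in the same order. Between cell types and for the difference, that scale included the constant added to the pachytene values. Centring on hybridization controls gave 24 and 0 for age in round spermatids, 5 higher between cell types, and 20 and 0 for the difference. A change of at least 1.5-fold was met by 0 and 3 genes for age in pachytene spermatocytes, 1 and 0 in round spermatids, 3 and 13 between cell types, and 0 and 0 for the difference. Leaving out the 40% dimmest probe sets, or using 1 probe set per gene, gave 4 lower for age in round spermatids. Without young rats 1, 10 and 11 this age count was 3 and 1. The cause of each shift was not tested, and neither was the part of fewer samples or genes in it.

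Leaving out 1 rat at a time gave 5 to 10 higher and 6 to 10 lower for age in pachytene spermatocytes, 8 to 14 and 2 to 7 in round spermatids, 11 and 32 to 33 between cell types, and 2 to 5 and 2 to 3 for the difference. The 7 lower in round spermatids came without young rat 2, as did the 5 higher for the difference, and 6 lower came without young rat 3. The age call of Psmd10 in pachytene spermatocytes was lost without young rat 11 (adjusted p 0.0515), aged rat 8 (0.0503) or aged rat 9 (0.0516).

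With the rat as a fixed replicate block, 11 genes were higher and 33 lower between cell types and 2 and 2 for the difference, and as a random replicate block 11 and 32 and 3 and 2. The numbers 2, 3 and 10 occur at both ages but mark different rats. Using the rat number as a replicate block left 0 and 1 for age in pachytene spermatocytes and 0 and 0 in round spermatids. All arrays of the cell type stayed in that fit, but only those numbered 2, 3 and 10 inform its change with age.

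Directions turned for a few genes. In pachytene age, Psmf1 was at 0.015 under median centring, and Psmd9 at -0.14 (deposited) and -0.026 (hybridization controls). Between cell types, Psmd7 was at -0.026 (median centring), -0.046 (deposited), -0.11 (hybridization controls) and -0.31 (another probe set), Psmb8 at -0.029 (hybridization controls), and other probe sets of Psme1 and Psme4 at -0.063 and -0.81. For the difference, Psmb10 was at 0.032 (deposited), Psmd1 at 0.15 (deposited) and 0.077 (hybridization controls), and another probe set of Psmc4 at -0.051. The number of arrays limits precision, and Psmb9 and Psma3 have dim probe sets.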
